A study of Mus musculus with 8 samples.

Results

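NF-kappa B is a family of dimeric transcription factors, and the 10 genes described here encode its 5 subunits and 5 proteins that restrain or redirect them. They were taken by gene symbol from a table of 18540 genes: the subunits Nfkb1, Nfkb2, Rel, Rela and Relb, the I kappa B proteins Nfkbia, Nfkbie, Nfkbiz and Bcl3, and Tnfaip3, the ubiquitin-editing enzyme A20. The counts come from mouse wound skin, with 4 samples from the control group, whose wounds were injected with PBS, and 4 from the Z1C2Z group, treated for 15 days. Z1C2Z is a nanocomposite of zinc peroxide and cerium oxide inside the zeolitic framework ZIF-8, at the higher of the 2 tested ratios of cerium oxide to zinc peroxide. The stated wound dose was 100 μg/kg. The study treated both C57BL and diabetic db/db mice. Neither the labels nor the sequencing methods say which strain, age or sex the sequenced skin had, whether animals were pooled, or which samples shared a mouse, although every mouse carried a pair of wounds. The p-values below therefore measure the spread between these samples. Samples carry the numbers of their labels, 1, 2, 3 and 5 in the control group and 1, 2, 4 and 5 in the Z1C2Z group.

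In resting cells the I kappa B proteins hold NF-kappa B dimers in the cytoplasm. Signals from Toll-like, IL1 and TNF receptors activate the I kappa B kinase, the inhibitor is phosphorylated and degraded, and the freed dimers enter the nucleus. Among the genes they switch on are their own inhibitors, foremost Nfkbia and Tnfaip3, so the mRNA of these inhibitors is a common readout of recent NF-kappa B activity. In skin the pathway serves keratinocytes, fibroblasts, endothelial cells and infiltrating leukocytes alike, and it is known for driving the inflammatory phase of wound repair.

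The feedback described above runs through kappa B sites, short sequences to which the dimers bind. RefSeq promoter windows on GRCm38.p6, which run from 250 bases before to 50 bases after a transcription start, were on hand for 7 of the 10 genes. The degenerate 10-base kappa B consensus, searched on both strands, matched at least 1 window of 6 of the 7, namely Nfkb2, Rel, Nfkbia, Nfkbie, Bcl3 and Tnfaip3, and none of Rela. Over all genes with such a window 5.14% had a match, and over all 32851 windows 4.51% did. The windows of these genes were also richer in G and C, with a median of 65.2% against 52.7% over all windows. Stretches of the windows follow for 7 starts, with the matches in capitals. Each stretch is written 5′ to 3′ on the strand of its gene and covers the 150 bases before the start, except for Bcl3, where 27 bases reach across the start to a match that begins 3 bases after it.

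Nfkbia, chr12:55492648-55492797, minus strand: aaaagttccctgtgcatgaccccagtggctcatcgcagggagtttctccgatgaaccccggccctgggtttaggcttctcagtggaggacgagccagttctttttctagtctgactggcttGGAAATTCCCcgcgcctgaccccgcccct
Tnfaip3, chr10:19015411-19015560, minus strand: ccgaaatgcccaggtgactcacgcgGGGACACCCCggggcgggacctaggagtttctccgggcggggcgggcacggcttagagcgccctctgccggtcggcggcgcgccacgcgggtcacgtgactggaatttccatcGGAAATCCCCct
Bcl3, chr7:19822744-19822770, minus strand: agttcagtcggcggcagGGGAAGTCCC
Nfkbie, chr17:45555550-45555699, plus strand: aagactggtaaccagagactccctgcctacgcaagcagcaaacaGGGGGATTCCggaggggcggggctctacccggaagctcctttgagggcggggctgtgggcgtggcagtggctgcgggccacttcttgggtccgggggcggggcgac
Nfkb2, chr19:46304587-46304736, plus strand: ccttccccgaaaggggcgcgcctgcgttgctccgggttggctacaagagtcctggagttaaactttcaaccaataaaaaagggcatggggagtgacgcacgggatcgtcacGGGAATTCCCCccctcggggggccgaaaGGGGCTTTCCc
Rel, chr11:23770970-23771119, minus strand: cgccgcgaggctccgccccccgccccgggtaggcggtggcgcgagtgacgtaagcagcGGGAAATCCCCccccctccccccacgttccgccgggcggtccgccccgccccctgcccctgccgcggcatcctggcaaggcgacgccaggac
Rela, chr19:5637391-5637540, plus strand: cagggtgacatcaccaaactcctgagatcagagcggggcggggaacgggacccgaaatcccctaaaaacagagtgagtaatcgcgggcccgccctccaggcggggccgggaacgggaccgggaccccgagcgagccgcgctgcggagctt

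The match of Nfkbia began 29 bases before the start, those of Tnfaip3 125 and 12 bases, and that of Nfkbie 106 bases before it. Nfkb2 had matches that began 39, 38 and 11 bases before its first start, and Rel 92 and 91 bases before, where the first pair of Nfkb2 and the pair of Rel each overlap by all but 1 base. A match is a stretch of letters, and binding was not measured. Whether the matches bear on the differences between the groups was not tested.

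**Figure D1:**
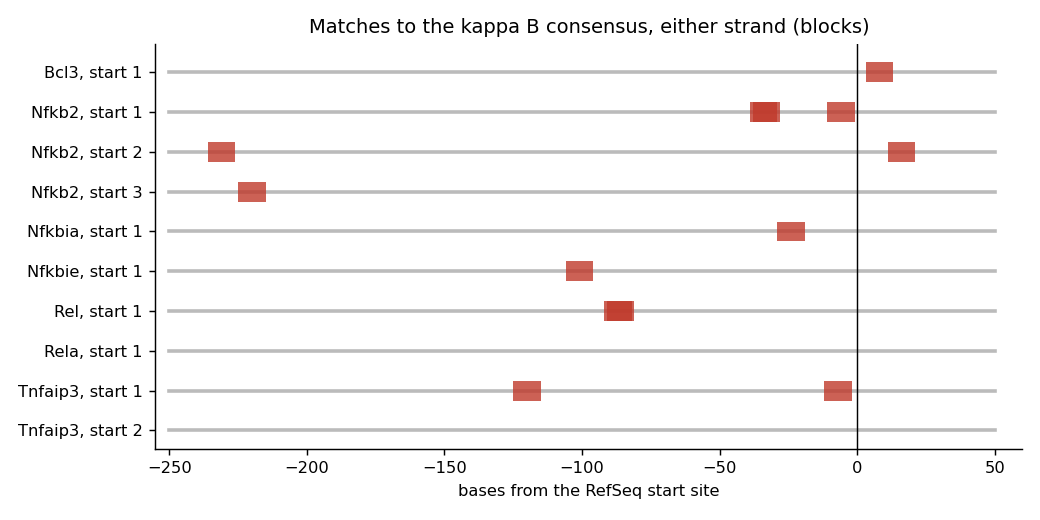
Matches to the kappa B consensus (red blocks, 10 bases long) along RefSeq windows of 7 genes; the x axis is the distance in bases from the transcription start, and starts of a gene are numbered in the direction of transcription. Of 10 windows, 8 hold a match, and those of Rela and of the second Tnfaip3 start hold none.

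All 10 genes were well counted, with 219 to 7440 reads per gene and sample, and all passed the low-count filter. Totals lay between 28856790 and 38974888 counts per sample. On the first principal component, which carried 62.2% of the variance, Z1C2Z-2 and Z1C2Z-4 stood apart from the rest at 65.7 and 67.7. Z1C2Z-1 had 28.1, Z1C2Z-5 had -0.291, and the control samples ranged from -62.9 to -12.2. The tissue showed the defining markers of skin, with keratinocyte markers (Krt5, Krt14, Krt1, Krt10, Trp63 and Ivl) summing to 11500 to 17900 CPM per sample. CPM are counts relative to the library size, here after TMM normalization.

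In the Z1C2Z group the mRNA of all 10 genes was lower in every sample than in every control sample. Such a separation, on the log2 CPM scale, was met by 8.82% of the 15147 genes tested. In edgeR's quasi-likelihood test 6 of the 10 passed an adjusted p under 0.05, all of them lower: Nfkb1, Nfkb2, Rela, Nfkbie, Nfkbiz and Bcl3. Over all genes tested 3.85% were called lower and 4.28% higher, and none of the 10 was called higher in any of the fits run. With a fold change over 2 required as well, Nfkbiz and Bcl3 were called, against 1.25% of all genes. All 10 had an unadjusted edgeR p under 0.05, as did 4248 of the 15147 genes tested. Rel had the largest of the 10 at 0.0499. The inhibitors had the larger differences, with log2 fold changes from -0.97 to -1.73, whereas the subunits ranged from -0.20 to -0.64. The median over the 10 genes was -0.80, and over all genes tested it was 0.01. DESeq2, a second count test, called 9 of the 10 lower and left out Rel, where it called 9.31% of all genes lower.

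**Figure D2:**
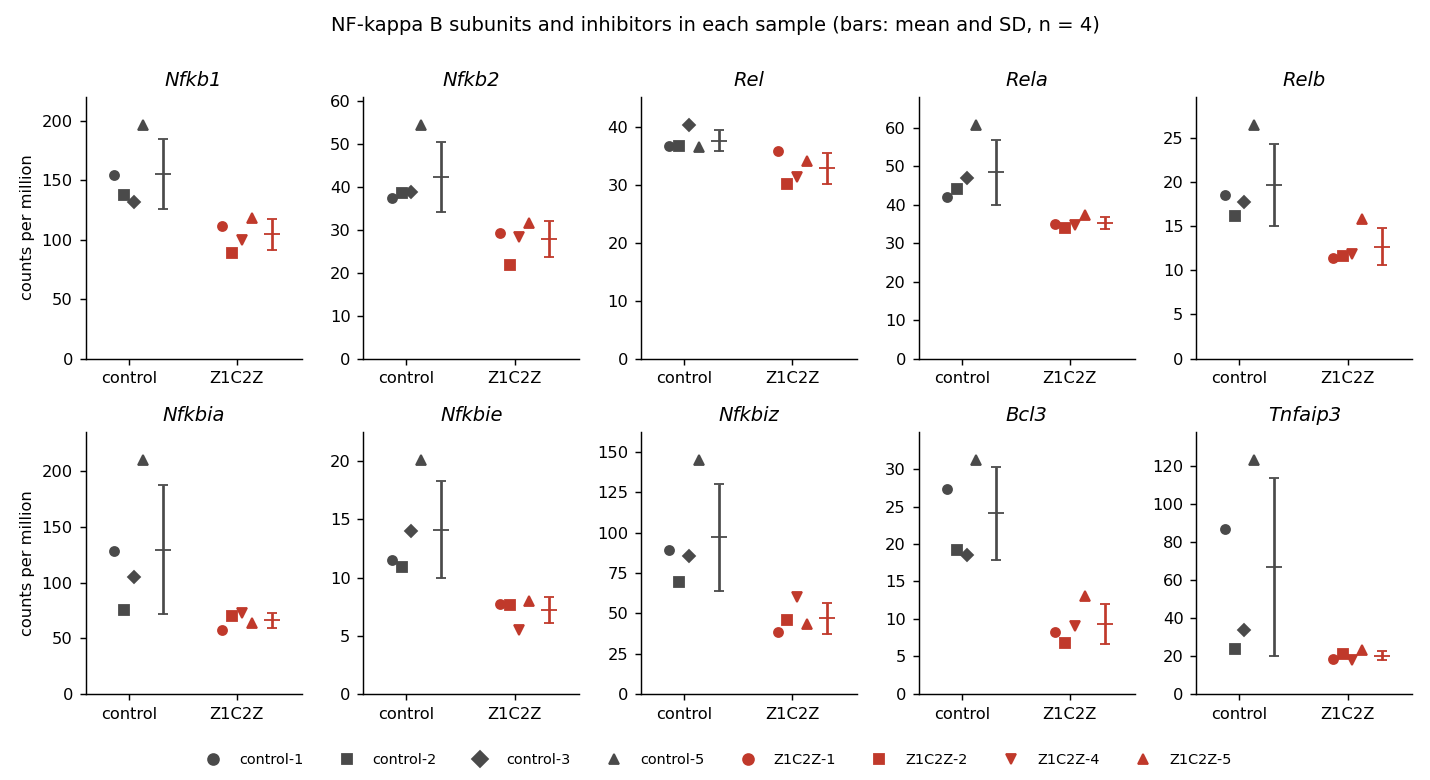
CPM of the 10 genes (y axis, from 0) in each of the 4 control and 4 Z1C2Z samples, with the mean and SD beside them. The Z1C2Z samples sit below the control samples in every panel, narrowly for Rel, Relb and Tnfaip3, and control-5 is the highest sample in 9 of the 10 panels.

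The subunits differ in how they act. Nfkb1 encodes p105, the precursor of p50, which has no transactivation domain of its own and pairs with RelA or c-Rel. Nfkb1 had 155, 138, 132 and 197 CPM in the control samples, in the order of their numbers, and 112, 89.0, 99.6 and 118 CPM in the Z1C2Z samples. The highest treated sample, Z1C2Z-5, stayed below the lowest control sample, control-3. The gene was 1.49-fold lower (95% interval 1.18 to 1.87), or -0.57 on the log2 scale with a standard error of 0.15 (edgeR adjusted p = 0.0470).

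Rela encodes p65, the main transactivating partner of p50. Its CPM were 42.1, 44.0, 47.0 and 60.8 in the control samples and 35.1, 33.9, 34.7 and 37.4 in the Z1C2Z samples, in the order given for Nfkb1. The treated samples lay close together, with an SD of 1.53 CPM around 35.3 against 8.43 CPM around 48.5 in the control group (n = 4 each). The difference was small, 1.37-fold (95% interval 1.14 to 1.66), and its edgeR adjusted p of 0.0498 sat at the threshold. Of the 16 alternatives 3 still called Rela, namely RLE size factors, DESeq2 and the fit without control-1, and 13 did not, among them the other 7 fits that left out 1 sample.

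Nfkb2 and Relb form the p52 and RelB dimer of the noncanonical branch, which is set off by receptors such as CD40 and lymphotoxin beta receptor through the kinase NIK. Nfkb2 had 37.4, 38.6, 38.9 and 54.5 CPM in the control samples and 29.2, 21.8, 28.4 and 31.7 CPM in the Z1C2Z samples. It was 1.53-fold lower (95% interval 1.19 to 1.95, edgeR adjusted p = 0.0476). Exons of Nfkb2 share 299 bases, 6.52% of their length, with the opposite-strand gene Psd. They share 531 bases, 11.6%, with the opposite-strand lncRNA AC114539.1. The strand setting of the counting is not given in the sources used here. Psd had a mean of only 53.4 counts per sample, but AC114539.1 was not among the counted genes, so its level is not known. Relb had 18.5, 16.1, 17.7 and 26.5 CPM in the control samples and 11.4, 11.6, 11.9 and 15.8 CPM in the Z1C2Z samples, so Z1C2Z-5 came near control-2. Its log2 fold change of -0.64 (standard error 0.18) was as large as that of Nfkb2, with an edgeR adjusted p of 0.0595, just past the threshold.

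Rel, which encodes c-Rel and is used most by lymphocytes and myeloid cells, differed least. It had 36.7, 36.8, 40.4 and 36.6 CPM in the control samples and 35.9, 30.1, 31.3 and 34.1 CPM in the Z1C2Z samples. The groups did not overlap, but the gap between Z1C2Z-1 and control-5 was 1.02-fold. The gene was 1.15-fold lower with a 95% interval from 1.00 to 1.31, and its edgeR adjusted p was 0.178. In the control group it was the steadiest of the 10, with a coefficient of variation of 4.90%, and the only one for which control-5 was the lowest control sample.

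Among the inhibitors, Nfkbia encodes I kappa B alpha, the classical cytoplasmic inhibitor that is degraded and resynthesized within each round of signaling. It had 128, 75.7, 105 and 210 CPM in the control samples and 57.1, 70.4, 72.6 and 63.8 CPM in the Z1C2Z samples. The control samples spanned 2.77-fold and the treated samples 1.27-fold, and Z1C2Z-4 lay just under control-2. The log2 fold change was -0.97 (95% interval -1.58 to -0.37), and the edgeR adjusted p was 0.0568. Over 16 alternatives its adjusted p ran from 0.00354, in DESeq2, to 1.

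Nfkbie encodes I kappa B epsilon, a slower inhibitor of RelA and c-Rel dimers. Its CPM were 11.5, 10.9, 14.0 and 20.1 in the control samples and 7.76, 7.64, 5.50 and 7.96 in the Z1C2Z samples. The lowest control sample exceeded the highest treated sample 1.37-fold, the second widest gap of the 10. The gene was 1.96-fold lower (95% interval 1.40 to 2.75, edgeR adjusted p = 0.0348).

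Nfkbiz and Bcl3 encode nuclear I kappa B proteins, which do not hold dimers in the cytoplasm but bind p50 or p52 on DNA and change which target genes are transcribed. Nfkbiz, known in skin for its part in the response of keratinocytes to IL17, had 89.1, 69.1, 85.3 and 145 CPM in the control samples and 38.2, 45.9, 60.2 and 43.2 CPM in the Z1C2Z samples. It was 2.07-fold lower (95% interval 1.44 to 2.98, edgeR adjusted p = 0.0348). Bcl3 had 27.4, 19.2, 18.6 and 31.2 CPM in the control samples and 8.32, 6.74, 9.06 and 13.1 CPM in the Z1C2Z samples. Its lowest control sample exceeded its highest treated sample 1.42-fold, the widest gap of the 10. Bcl3 was 2.59-fold lower (95% interval 1.78 to 3.76), with the smallest edgeR adjusted p of the 10 at 0.0299. GENCODE places a lncRNA, Gm16175, on the opposite strand over 6.51% of its exons.

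Tnfaip3 encodes A20, which removes and adds ubiquitin chains on signaling adaptors and so ends the signal upstream of the I kappa B kinase. It had the largest estimate and the least certain one. Control-1 had 87.0 CPM and control-5 had 123 CPM, but control-2 had 23.4 CPM and control-3 had 33.4 CPM. The Z1C2Z samples had 18.5, 21.0, 17.8 and 23.1 CPM, so Z1C2Z-5 and control-2 differed 1.01-fold. The control samples thus spanned 5.26-fold and the treated samples 1.30-fold. The log2 fold change of -1.73 had a 95% interval from -2.78 to -0.68, and the edgeR adjusted p was 0.0529. DESeq2 gave an adjusted p of 0.0122 and the fit without control-3 gave 0.0417, within 0.0122 to 1 over the 16 alternatives.

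Complete separation of 4 samples from 4 fixes the exact two-sided permutation p at 0.0286, the smallest that 70 arrangements allow, so this p restates the separation and is the same for every gene that shows it. The genes share the same 8 libraries, so these are not 10 independent results. The calls depended on single libraries. When Z1C2Z-1, Z1C2Z-4, Z1C2Z-2 or control-5 was left out, edgeR called no gene of the whole table, with 3100 to 4208 genes at an unadjusted p under 0.05, among them 9 or 10 of the 10. Without control-2 Bcl3 was the only one of the 10 called, where 98 genes of the whole table were called lower and 25 higher.

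**Figure D3:**
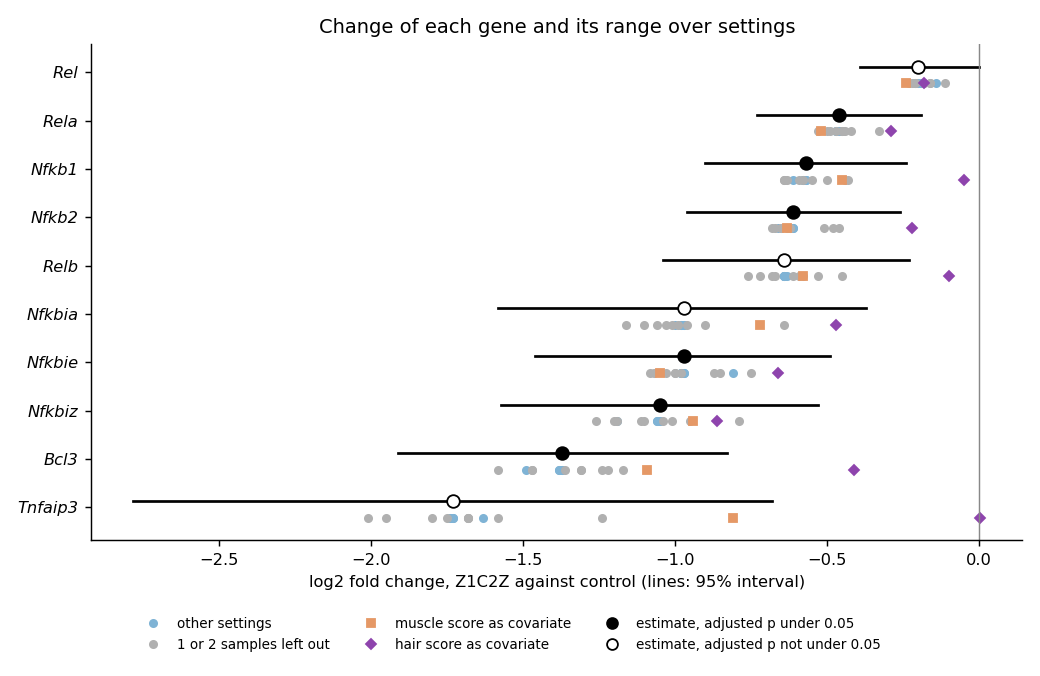
Log2 fold change (x axis, Z1C2Z against control) of the 10 genes with its 95% interval, filled where the edgeR adjusted p is under 0.05, and below it the values under the other settings. Every estimate lies under 0 except that of Tnfaip3 with the hair score as covariate, at 0.00389.

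Wound skin is a mixture, so fewer cells of a type and less RNA per cell cannot be told apart in these counts. Summed over 5 pan-leukocyte markers, the level was 571 to 763 CPM in the control samples and 367 to 638 CPM in the Z1C2Z samples, with 0 of 5 markers called. The 10 macrophage and monocyte markers summed to 2700 to 3130 and 1610 to 2750 CPM, and none was called. The neutrophil markers summed to 578 to 1510 CPM against 170 to 663 CPM, and none of the 8 tested was called. T cell markers overlapped at 30.9 to 52.9 and 31.3 to 50.5 CPM, and most B cell markers were too low to test. The sum of 6 endothelial markers was 316 to 840 CPM against 276 to 522 CPM, with none called, and 2 of 6 fibroblast markers, Dcn and Lum, were called lower. The adipocyte markers summed to 466 to 558 and 353 to 709 CPM, with none called. Of the markers tested, 1 of 7 T cell and 1 of 2 B cell markers had a log2 fold change under 0. It was under 0 for 3 of 5 adipocyte (median -0.47) and 7 of 8 neutrophil markers (-1.15). All 5 pan-leukocyte (-0.40), 10 macrophage and monocyte (-0.40), 6 endothelial (-0.71) and 6 fibroblast markers (-0.55) had one under 0, beside 48.9% of all genes. Hair shaft and matrix markers moved the other way: all 8 were called higher, from a sum of 73.3 to 317 CPM to one of 372 to 2310 CPM, and 2 of 8 skeletal muscle markers were called lower. The summed hair level did not overlap between the groups. The summed muscle level did not either, at 3110 to 5780 CPM in the control and 2640 to 2910 CPM in the Z1C2Z samples. With the mean log2 CPM of the hair markers as a covariate none of the 10 genes had an unadjusted edgeR p under 0.05. Over all genes 645 had one, and only 1 was called. The log2 fold changes of the 10 then lay between -0.86 for Nfkbiz and 0.00389 for Tnfaip3. With the muscle score 6 of the 10 and 3907 of all genes had an unadjusted p under 0.05. None of the 10 was called, while 12 of all genes were called lower and 4 higher. The part of these markers in the differences of the 10 genes was not tested.

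The control samples were not alike, and the differences among them ran through the same genes. Control-5 was the highest control sample for 9 of the 10. For 6 of the 10, Nfkb1, Relb, Nfkbia, Nfkbiz, Bcl3 and Tnfaip3, control-1 and control-5 were the 2 highest of all 8 samples, which held for 9.30% of all genes tested. This included 4 of the 5 inhibitors. The 10 genes had every control sample above every Z1C2Z sample, so their 2 highest samples had to be control samples. Only 8.82% of all genes tested were separated that way, so the 9.30% is not a like comparison for this order. Of the textbook NF-kappa B target genes, 14 of 30 showed that order, among them Il6, with 174 and 150 CPM in control-1 and control-5 but 5.19 and 7.49 CPM in control-2 and control-3. Of the 4 control samples, control-1 had the lowest sums of neutrophil, pan-leukocyte and endothelial markers, at 578, 571 and 316 CPM, and the highest of muscle markers, at 5780 CPM. Control-5 had 1320, 624, 840 and 4190 CPM for the same lists. In the Z1C2Z group, Z1C2Z-5 was the highest sample for 7 of the 10 genes and Z1C2Z-2 the lowest for 5.

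Levels can be compared between genes only per length, here as CPM per kilobase of exon in GENCODE M21, and the authors' annotation may differ from it. The length joins all exons annotated for a gene over all its transcripts, and was 12061 bases for Nfkb1 but 3072 for Rela. A gene whose expressed transcript is shorter than this joined length gets too low a value. The order below, that of Nfkb1 above all, therefore depends on the length used. In the control group Nfkbia was highest at 80.5 ± 35.7 (SD, n = 4). Nfkbiz at 19.4 ± 6.61, Rela at 15.8 ± 2.75 and Nfkb1 at 12.9 ± 2.42 followed, and neighbours among these 3 overlapped within 1 SD of their means. Bcl3 (9.72 ± 2.50), Nfkb2 (9.24 ± 1.78) and Tnfaip3 (9.23 ± 6.48) could not be ordered, and the same held for Relb (5.06 ± 1.20), Rel (5.04 ± 0.247) and Nfkbie (4.65 ± 1.38). In the Z1C2Z group Nfkbia remained highest at 41.0 ± 4.37. Rela came next at 11.5 ± 0.497, ahead of Nfkbiz at 9.34 ± 1.88, with which it overlapped within 1 SD, and of Nfkb1 at 8.67 ± 1.07. Tnfaip3, at 2.78 ± 0.336, was then among the lowest with Nfkbie at 2.37 ± 0.378.

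Ratios of counts within a library do not depend on library size. Since Rela itself was lower in the Z1C2Z group, the ratio to Rela was higher without overlap for 38.9% of the other genes tested and lower without overlap for 1.20%. Bcl3 reads per Rela read were 0.650, 0.435, 0.395 and 0.513 in the control samples and 0.237, 0.199, 0.262 and 0.349 in the Z1C2Z samples, lower without overlap. Nfkbie per Rela was also lower without overlap, at 0.288 ± 0.0356 and 0.204 ± 0.0310 (SD, n = 4 each). Rel per Rela went the other way, as did a large share of all genes, from 0.603 to 0.872 in the control samples and from 0.889 to 1.02 in the Z1C2Z samples. The ratios of the other 6 genes to Rela overlapped between the groups. For Nfkbia they were 1.72 to 3.45 and 1.63 to 2.10, and for Tnfaip3 2.07, 0.531, 0.710 and 2.02 in the control samples and 0.514 to 0.619 in the Z1C2Z samples. These ratios are a description, and no test was made of them.

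**Figure D4:**
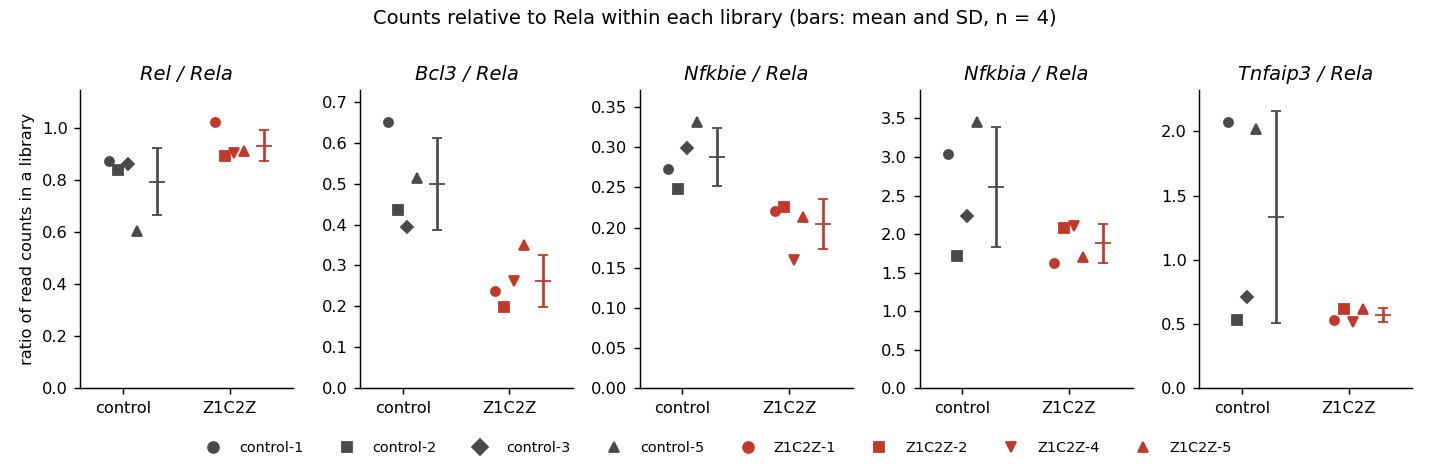
Read counts of 5 genes divided by those of Rela in the same library (y axis, from 0), per sample with mean and SD. Rel to Rela is higher, and Bcl3 to Rela and Nfkbie to Rela are lower, in every Z1C2Z sample, while Nfkbia to Rela and Tnfaip3 to Rela overlap.

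Around the 10 genes, the kinases, adaptors and other inhibitors of the pathway had smaller median differences and the target genes a larger one. The kinases that activate NF-kappa B had a median log2 fold change of -0.19. None of the 8 was called by edgeR or DESeq2, and Chuk and Tbk1 had an unadjusted p under 0.05 in edgeR. The catalytic subunits of the I kappa B kinase, Chuk and Ikbkb, had log2 fold changes of -0.19 (95% interval -0.37 to -0.01) and -0.08 (-0.24 to 0.08). Its scaffold Ikbkg had 0.07 (-0.09 to 0.23), and Map3k7, the TAK1 kinase above it, had -0.03 (-0.23 to 0.16).

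Among 23 adaptors and ubiquitin ligases, 4 were called lower and none higher, with a median of -0.08. Myd88, the adaptor of most Toll-like and IL1 receptors, fell from 53.7 ± 4.14 to 39.8 ± 4.75 CPM (SD, n = 4 each, edgeR adjusted p = 0.0419). Bcl10, which links CARD proteins to the kinase, fell from 86.9 ± 15.3 to 56.9 ± 1.23 CPM (log2 fold change -0.61, edgeR adjusted p = 0.0303). Birc3, the ubiquitin ligase cIAP2 and itself an NF-kappa B target, changed by -0.50 on the log2 scale (edgeR adjusted p = 0.0345). Rnf31, the catalytic part of the linear ubiquitin ligase complex, had -0.42 (edgeR adjusted p = 0.0391). Tab2 was at 181 CPM in both groups, Irak1 had a log2 fold change of -0.06, and Ripk1 had -0.39 without passing the test (edgeR adjusted p = 0.0819).

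Among 15 other inhibitors, Irak3, a kinase-dead brake on Toll-like receptor signaling, was the only one called, at -0.60 on the log2 scale (edgeR adjusted p = 0.0449). Its control samples lay within 52.6 to 54.4 CPM and its Z1C2Z samples within 27.4 to 46.5 CPM. Of the remaining I kappa B genes neither was called. Nfkbib, for I kappa B beta, had 13.2 ± 3.79 and 12.4 ± 1.92 CPM (SD, n = 4 each) and a log2 fold change of -0.09 (95% interval -0.56 to 0.38). Nfkbid had -0.46 (-1.27 to 0.35) at 3.32 and 2.42 CPM. The 4 most abundant of the list, Tax1bp1 (0.01), Tollip (-0.27), Itch (-0.19) and N4bp1 (-0.50), were not called either.

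The textbook target genes had the widest range, from a log2 fold change of -5.72 to 0.58 over 30 genes tested, with a median of -1.14. Of these, 8 were called lower and none higher: Cxcl1, Cxcl5, Il6, Csf3, Icam1, Sele, Ptgs2 and Lcn2. They encode neutrophil attractants, cytokines, adhesion molecules of endothelium, the prostaglandin synthase COX2 and the siderophore-binding protein lipocalin 2. Icam1 had the steadiest difference, from 36.4 to 54.6 CPM in the control samples and 22.8 to 29.2 CPM in the Z1C2Z samples (log2 fold change -0.84, edgeR adjusted p = 0.0299). Cxcl1 and Il6 had log2 fold changes of -5.72 and -5.51, Cxcl5 -3.61, Sele -3.22 and Lcn2 -2.18. Their edgeR adjusted p were 0.0337, 0.0356, 0.0299, 0.0303 and 0.0303. Cxcl1 had 257 and 309 CPM in control-1 and control-5 but 6.22 and 11.1 CPM in control-2 and control-3. Its Z1C2Z samples had 2.25 to 3.36 CPM, and its 95% interval ran from -8.53 to -2.9. Csf3 had 16.3 and 22.3 CPM in control-1 and control-5 but 1.17 and 1.35 CPM in control-2 and control-3. Its log2 fold change was -4.32 (edgeR adjusted p = 0.0484). Ptgs2 showed the same upper pair of control samples as Tnfaip3, with 537 and 776 CPM in control-1 and control-5, 44.5 and 34.6 CPM in control-2 and control-3, and 5.72 to 31.6 CPM in the Z1C2Z samples (edgeR adjusted p = 0.0494). Saa3 and Sod2, abundant targets, did not overlap between the groups but were not called, with edgeR adjusted p of 0.116 and 0.0748. Vcam1, Traf1, Cd40, Plau and Gadd45b, targets chosen here after their values were seen, had log2 fold changes of -0.62, -0.27, -0.38, -0.22 and 0.12 without passing the test. Of the 30 genes 28 had a log2 fold change under 0, beside 48.9% of all genes tested.

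In all, 13 of the 76 tested pathway genes outside the 10 were called lower (17.1%) and none higher, beside 3.85% and 4.28% of all genes. The lists, like the 10 genes, were chosen with earlier results of these data known. Their shares are therefore a description and no test of an excess. Without control-2 this count was 5, and it was 0 when Z1C2Z-1, Z1C2Z-4, Z1C2Z-2 or control-5 was left out. In the fits with 0, 24 to 32 of these genes and 3100 to 4208 of all genes had an unadjusted p under 0.05. DESeq2 called 23 of these pathway genes lower, beside 9.31% of all genes it tested. The KEGG annotation deposited with the counts lists 6 of the 10 genes under NF-kappa B signaling, Nfkb1, Nfkb2, Rela, Relb, Nfkbia and Tnfaip3. Of its 99 tested genes 13 were called lower, 3 of them among the 10, and 2 higher. A promoter match to the kappa B consensus was found for 7 of 21 target genes with a window, for 5 of 14 other inhibitors, for 2 of 18 adaptors and ligases and for 1 of 6 kinases. Of these genes with a match Bcl10, Cxcl1 and Il6 were called lower. Most were not called, and neither were most of the 76 tested pathway genes. Whether a match went with a call was not tested.

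**Figure D5:**
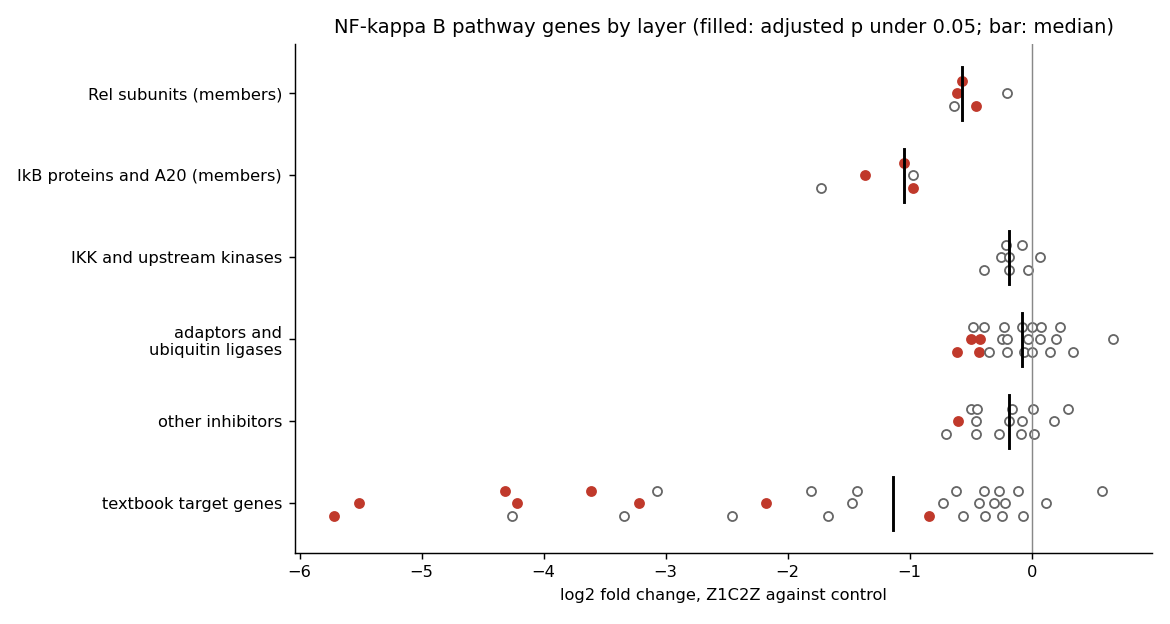
Log2 fold change (x axis, Z1C2Z against control) of NF-kappa B pathway genes by layer, 1 point per gene, filled red where called lower, with black bars at the medians. Kinases, adaptors and other inhibitors centre between -0.19 and -0.08, while the subunits, the inhibitors and the target genes centre at -0.57, -1.05 and -1.14.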

How the data were processed

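Wound skin RNA of 8 mouse samples, 4 control and 4 Z1C2Z, was sequenced by the authors. The labels name Trizol, depletion of ribosomal RNA and dUTP in the second strand, and the methods name another extraction kit. The authors deposited raw counts per gene without normalization. Aligner, counting program, genome build, annotation and strand setting are not given in the sources used here. Groups come from the sample titles. The table held 0 unused sample columns. Depth was between 28856790 and 38974888 counts per sample, and the smallest gene count used was 219. The smallest chi-square between 2 libraries was 21.7 per degree of freedom, so each library counted once.

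The test was edgeR 4.0.16 under R 4.3.3, with filterByExpr (15147 genes kept), TMM, a quasi-likelihood fit without covariate and Benjamini-Hochberg adjustment over all genes tested. A gene was called at an adjusted p under 0.05. Standard errors and 95% intervals follow from the F statistic. Log2 CPM used a prior count of 2. The steps were tested on simulated counts. The alternatives were DESeq2 1.42.0, RLE size factors, other count filters, a prior count of 0.5, a replicate block, 2 tissue scores as covariates, each sample left out in turn and, chosen after seeing the data, Z1C2Z-2 and Z1C2Z-4 left out together. The 10 genes and the lists were chosen with earlier results of these data known. Named beside the 10 genes were called genes of the pathway lists, the 4 most abundant per list, Nfkbib and Nfkbid. Tbk1, Vcam1, Traf1, Cd40, Plau and Gadd45b were named outside this rule, after their values were seen. Promoter sequences are RefSeq's on GRCm38.p6, and 7 of the 10 genes matched by identifier. The authors' KEGG annotation was used as deposited.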

Additional observations from a re-analysis of the deposited data

Results flagged for a closer look

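In 4 of the 20 groups of 4 values, that is 10 genes in the control and Z1C2Z groups, 1 sample stood apart from the other 3 by more than Dixon's critical value, where chance gives about 1 in 20. Nfkb2 was high in control-5 at 54.5 CPM. Rel was high in control-3 at 40.4 CPM, within a group that spanned only 1.10-fold. Relb was high in Z1C2Z-5 at 15.8 CPM, the sample whose position on the first principal component was nearest to the control group. Nfkbie was low in Z1C2Z-4 at 5.50 CPM. In all 4 the groups still did not overlap. The cause of these values was not tested.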

How the results depend on the processing

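No member was called higher in any fit, and all 10 stayed without overlap under RLE size factors and a prior count of 0.5. Members called lower numbered 6, of these 2 past 2-fold, and other pathway genes called lower 13. The skeletal muscle score as covariate gave 0, 0 and 1, and the hair score 0, 0 and 0. In the whole table these 2 fits called 12 genes and 1 gene lower. Without both Z1C2Z-2 and Z1C2Z-4 the counts were 0, 0 and 0. Leaving out 1 sample gave ranges of 0 to 6, 0 to 3 and 0 to 14. DESeq2 called 23 pathway genes lower, beside 9.31% of all genes. Of the members, 1 estimate turned sign, that of Tnfaip3 with the hair score, at 0.00389. The cause was not tested. Sample numbers 1, 2 and 5 occur in both groups, but deviations of same-numbered samples correlated at -0.101, -0.0623 and 0.323, which does not show that they are paired, and whether any shared a mouse is not known. With the replicate block 2 members were called lower, Nfkbiz and Bcl3, and 10 pathway genes, where 253 genes of the whole table were called lower and 301 higher. At this depth counting error is small for the 10 genes, and 4 samples per group limit the precision.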
